A study of Mus musculus with 2 samples.

Results

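Antisense RNAs, transcripts read from the strand opposite another gene, were described in the nucleoplasm of mouse macrophages stimulated with lipid A. A gene was taken when the annotation gave it at least 1 transcript of biotype antisense and no lincRNA transcript, and when its level reached 5 TPM in both libraries; TPM is the abundance of transcripts per length, scaled to a fixed total per library. Gas5 and the snoRNA host genes whose names start with Snhg were left out. Of 55536 annotated genes, 3067 met the conditions on biotype and name, and 97 of these, or 3.16%, also met the one on level. The 97 genes were thus selected on measured TPM, so their levels are a description and carry no test. For comparison, 30.9% of 22028 protein-coding genes and 1.82% of 6058 genes with a lincRNA transcript reached the same level.

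The cells were bone-marrow-derived macrophages of C57BL/6J mice, phagocytes grown in culture from marrow progenitors. They had been given 100 ng/ml lipid A, the part of lipopolysaccharide that the receptor TLR4 binds, for 12 h, washed for 12 h, and given the same dose again for 25 min. Nucleoplasmic RNA, freed of ribosomal RNA, was sequenced in 2 libraries labelled as biological replicates, which also shared 1 donor entry. The starting amount was 500 ng for replicate 1 and 1 µg for replicate 2. Replicate and amount cannot be told apart, and the spread between the libraries may be technical. Samples without lipid A, with a single exposure or of the cytoplasm were not analysed here, so no value below is a response to lipid A or an enrichment in the nucleus. In such bulk RNA, fewer cells that express a gene and less of its RNA per cell cannot be told apart.

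Antisense RNAs are a mixed class. Some are spliced and stable, some are by-products of open promoters that the nuclear exosome removes quickly, and a few act on the gene they face, as Airn does when it silences Igf2r on the paternal chromosome. Many stay in the nucleus, and their levels are usually far below those of coding mRNAs. In macrophages, inflammatory genes such as Il1b and Ptgs2 carry annotated antisense transcripts of their own.

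The gene tables held 20196408 expected counts in replicate 1 and 19588980 in replicate 2. All 9 macrophage markers, among them Csf1r, Adgre1 and Lyz2, reached 5 TPM in both libraries, with mean levels of 62.8 to 1502 TPM. The 7 lymphocyte markers summed to 0.35 and 0.31 TPM, the 5 erythroid and mast cell markers to 0.29 and 0.14 TPM and the 4 stromal markers to 2.55 and 1.78 TPM, and the 6 neutrophil markers were at 0 in both. The antisense genes took 0.290% of all expected counts in replicate 1, with a 95% Wilson interval of 0.287 to 0.292%. In replicate 2 they took 0.298%, with an interval of 0.295 to 0.300%; both intervals cover counting error only. Their median expected count was 270 in replicate 1 and 310 in replicate 2, and 17 of them had fewer than 100 counts in at least 1 library. The strand setting of the quantification is not given in the sources used here. Where exons of both strands overlap, reads of an antisense gene and of its partner can therefore not be told apart. The same holds for antisense exons in introns of the partner, if unspliced partner RNA was present, which was not tested. Of the 52 antisense genes within their partner, 24 had no exonic base in opposite exons, and this limit covers them too.

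RefSeq promoter windows, running from 250 bases before to 50 bases after the start, could be matched to 36 of the 97 genes. They were searched on both strands for 5 motifs: the AP-1 motif TGANTCA, the interferon-response motif GAAANNGAA, the ETS motif GAGGAAG of factors such as PU.1, TATAAA, and the NF-kB motif. The ETS motif was in 9 of the 36 windows (25.0%) and in 13.5% of all 27025 windows of this length. The interferon-response motif was in 4 (11.1%, against 8.57% of all), TATAAA in 4 (11.1%, against 14.2%), the AP-1 motif in 2 (5.56%, against 7.93%) and the NF-kB motif in 1 (2.78%, against 8.18%). The 5 letter patterns were all missing from 20 of the 36 windows. The RefSeq start lay 0 to 61799 bases from the GENCODE start, so some windows may not be promoters of the genes measured. Both AP-1 matches were in shifted windows, 3546 bases away for Gm20234 and 61799 for 4930512H18Rik. The shift was also large for Gm10634 (28244 bases), Gm28913 (18240 bases) and Peak1os (16546 bases). The following 4 windows (GRCm38.p6, capitals mark motif matches) are shown because they stand for the classes described below: a gene with no coding partner, a gene of the repeated region near Sp110, a gene named after its partner, and an imprinted antisense RNA. F630028O10Rik lies on the plus strand at chrX:96239676-96239975, A530040E14Rik on the plus strand at chr1:85105843-85106142, Rab10os on the plus strand at chr12:3235541-3235840, and Airn on the plus strand at chr17:12741061-12741360. The RefSeq start is the GENCODE start for F630028O10Rik and Airn, and is 147 bases from it for A530040E14Rik and 287 bases for Rab10os.
F630028O10Rik: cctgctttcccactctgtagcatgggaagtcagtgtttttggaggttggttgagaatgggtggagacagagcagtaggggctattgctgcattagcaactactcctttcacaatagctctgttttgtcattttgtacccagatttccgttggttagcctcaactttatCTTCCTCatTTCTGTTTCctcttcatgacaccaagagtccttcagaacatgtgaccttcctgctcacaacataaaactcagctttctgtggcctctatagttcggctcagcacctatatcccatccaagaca
A530040E14Rik: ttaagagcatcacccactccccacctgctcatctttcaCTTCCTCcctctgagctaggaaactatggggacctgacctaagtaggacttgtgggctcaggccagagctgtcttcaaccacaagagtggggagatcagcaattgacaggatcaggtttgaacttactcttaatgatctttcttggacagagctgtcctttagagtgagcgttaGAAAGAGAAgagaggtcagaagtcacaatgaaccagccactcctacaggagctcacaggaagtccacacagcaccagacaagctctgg
Rab10os: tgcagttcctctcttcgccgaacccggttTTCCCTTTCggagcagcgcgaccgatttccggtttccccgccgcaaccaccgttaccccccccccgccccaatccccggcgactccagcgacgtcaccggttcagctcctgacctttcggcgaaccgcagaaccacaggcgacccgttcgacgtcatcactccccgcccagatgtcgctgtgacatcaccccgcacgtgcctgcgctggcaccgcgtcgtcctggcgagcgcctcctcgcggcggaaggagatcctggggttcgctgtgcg
Airn: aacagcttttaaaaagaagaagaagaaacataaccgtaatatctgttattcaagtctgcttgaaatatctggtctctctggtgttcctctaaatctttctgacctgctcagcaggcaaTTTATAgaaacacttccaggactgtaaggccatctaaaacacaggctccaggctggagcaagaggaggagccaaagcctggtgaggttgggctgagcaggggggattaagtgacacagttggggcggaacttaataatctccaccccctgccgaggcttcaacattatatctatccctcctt
The first 2 windows hold an ETS and an interferon-response match each, as no other of the 36 did. Every window shown holds a match while 20 of the 36 hold none, so they are not typical of the 36. The Rab10os window holds an interferon-response match near its far end, and the Airn window holds a TATAAA match on the minus strand. A match describes letters and shows no binding.

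The antisense genes ranged from 5.14 to 229 TPM in mean level, with a median of 11.4 TPM. Of the 97, 10 reached a mean of 50 TPM, 23 reached 20 TPM and 41 stayed under 10 TPM. They lay on 20 chromosomes, with the most on chromosome 1, which held 9.

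AC119228.1 (chr19:29373417-29384471, minus strand) carried the most reads. It lies within Cd274, which encodes PD-L1, the ligand that restrains T cells through PD-1. Its level was 116 TPM in replicate 1 and 155 TPM in replicate 2, or 136 ± 27.5 TPM (SD, n = 2), from 8834 and 11769 expected counts. Cd274 itself was at 405 and 351 TPM, so the antisense gene stood at 36.0% of its partner by mean TPM. Only 10.8% of its exonic bases lie in exons of an opposite-strand gene. In the kallisto-layout table, rescaled so that coding genes had the same total, AC119228.1 had 115 and 139 TPM, close to the gene table, and Cd274 had 307 and 277 TPM.

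Gm26716 (chr4:130824394-130826313, minus strand) had the highest TPM, 243 in replicate 1 and 215 in replicate 2. It lies within Sdc3, which encodes the cell-surface proteoglycan syndecan-3 and was at 212 and 283 TPM. All 415 of its exonic bases lie in exons of Sdc3. In the rescaled kallisto-layout table it had 87.2 TPM in replicate 1 and almost none, 9.01e-09 TPM, in replicate 2, so the 2 tables give different levels for this gene. A second antisense gene within Sdc3, Gm12970, was at 5.03 and 9.19 TPM with 8.26% of its exonic bases shared.

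Gm15655 (chr8:115705078-115707233, plus strand) lies within Maf, which encodes a transcription factor of macrophages. Its level was 203 TPM in replicate 1 but 39.0 TPM in replicate 2, a wide gap, while Maf was at 175 and 123 TPM. Gm37401 (chr9:108337089-108338273, minus strand) overlaps the 3' end of Rhoa, a GTPase of the actin cytoskeleton. It was at 125 and 17.0 TPM beside 84.6 and 60.3 TPM of Rhoa. Both genes are short, and 100% of the exonic bases of Gm15655 and 93.4% of those of Gm37401 lie in exons of the opposite strand.

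Zeb2os (chr2:45110707-45114087, plus strand) lies opposite Zeb2, a zinc-finger repressor needed for macrophage identity. In human cells the corresponding antisense RNA is known to alter splicing of the mRNA. The level of Zeb2os was 92.5 TPM in replicate 1, against 69.0 TPM in replicate 2, beside 609 and 537 TPM of Zeb2, and so reached 14.1% of it. The gene also holds an annotated short misc_RNA transcript of 61 bases, Zeb2os-203. That transcript alone had 296 and 87.0 TPM in the kallisto-layout table before rescaling, of 392 and 108 TPM for the whole gene, which is 541 and 566 TPM after it.

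BE692007 (chr19:11470166-11484578, minus strand) overlaps the 3' end of Ms4a6c, which encodes a membrane protein of myeloid cells. It was at 63.3 and 58.9 TPM, beside 153 and 169 TPM of Ms4a6c. Its leading transcript is a retained-intron form of 4331 bases, and not one of biotype antisense. F630028O10Rik, on the X chromosome, has no coding partner under the rule used and was at 68.9 and 47.9 TPM from 3818 and 2913 counts. Gm7480, within the melanocyte-linked gene Lrmda, was at 46.0 and 23.5 TPM, beside 29.6 and 41.7 TPM of Lrmda. 4930430E12Rik, at 23.4 and 34.5 TPM, is the other gene without a partner among the 23 with at least 20 TPM.

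Tug1 and Zfas1 are conserved spliced noncoding RNAs that the annotation also gives antisense transcripts. Tug1 (chr11:3639785-3649673, minus strand) starts 482 bases from the start of Morc2a, which encodes a chromatin ATPase. It had 67.9 and 51.6 TPM, beside 24.3 and 15.5 TPM of Morc2a, and was above it in both libraries. Zfas1 (chr2:167062934-167065862, plus strand), host of small nucleolar RNAs, starts 81 bases from Znfx1, which encodes an antiviral helicase. It had 42.7 and 75.9 TPM, the higher level in replicate 2, beside 190 and 256 TPM of Znfx1.

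**Figure D1:**
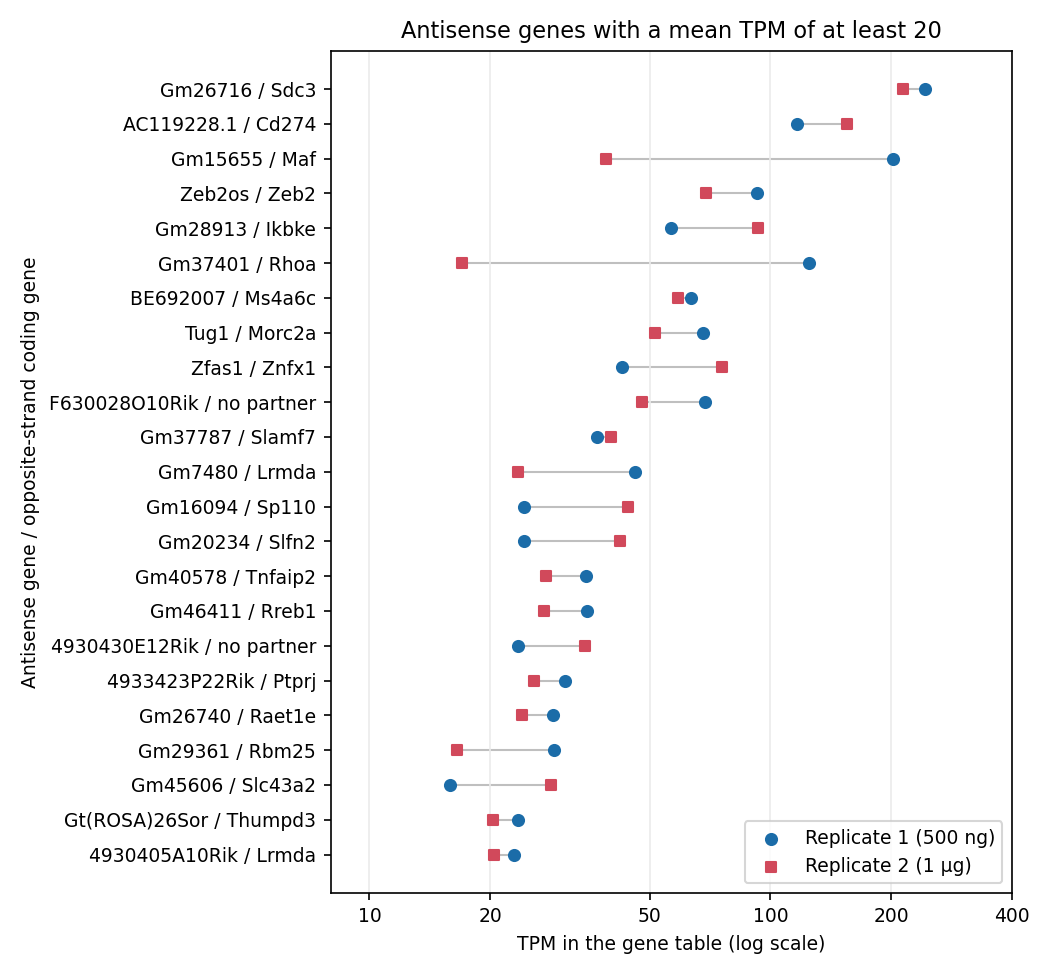
TPM (log axis) of the 23 antisense genes with a mean of at least 20 TPM, each with its coding partner, as a circle for replicate 1 and a square for replicate 2 joined by a line. Gm15655 (203 and 39.0 TPM) and Gm37401 (125 and 17.0 TPM) have the longest lines.

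Some partners have known roles in the interferon response or inflammation. Those named here beyond the fixed rule were picked after their values were seen, and no share of such partners was counted outside the fixed inflammatory list below. Gm28913 and Gm28914 both lie within Ikbke, a kinase that activates interferon regulatory factors, which was at 279 and 396 TPM. Gm28913 had 56.5 and 93.1 TPM, and Gm28914 had 12.4 and 21.1 TPM. Both were higher in replicate 2, as was Ikbke. In the rescaled kallisto-layout table Gm28913 had 283 and 228 TPM, so its level was higher there and the order of the libraries turned, while Gm28914 had 18.1 and 25.4 TPM.

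On chromosome 1, Gm16094 starts 469 bases from Sp110 in the opposite direction. Sp110 encodes an interferon-inducible nuclear body protein and had 102 and 157 TPM, while Gm16094 had 24.3 and 44.1 TPM. Close by, Gm10552 lies within Sp140, a related gene, at 7.16 and 7.89 TPM beside 71.1 and 114 TPM. A530040E14Rik had 11.3 and 18.4 TPM and lies within C130026I21Rik, at 34.9 and 56.2 TPM. This stretch of mouse chromosome 1 is known for repeated gene copies, so the assignment of reads to the genes named in it is uncertain. The rescaled kallisto-layout table gave higher levels, 89.7 and 111 TPM for Gm16094 and 31.5 and 43.6 TPM for A530040E14Rik. For Gm10552 it gave 19.0 and 15.5 TPM, with the order of the libraries turned.

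Gm20234 overlaps Slfn2, a schlafen gene induced by interferon, and had 24.3 and 42.2 TPM beside 321 and 323 TPM. The rescaled kallisto-layout table gave it 233 and 191 TPM, a higher level and the opposite order of the libraries. Gm40578 overlaps Tnfaip2, a gene induced by TNF, and had 34.8 and 27.6 TPM beside 296 and 198 TPM; it also overlaps the coding gene Gm266 on its own strand. Gm37787, within Slamf7, a receptor of macrophages and lymphocytes, had 37.0 and 40.1 TPM beside 240 and 254 TPM, with 72.3% of its exonic bases in opposite exons. Gm16712 overlaps the 3' end of Ebi3, a subunit of the cytokine IL-27, and had 23.1 and 14.8 TPM beside 33.2 and 34.3 TPM. Gm45479 lies within Irf2, which encodes an interferon regulatory factor, shares no exonic base with it, and had 13.4 and 15 TPM beside 64.5 and 59.8 TPM. E430024P14Rik spans Tagap, a GTPase-activating protein of immune cells, and had 9.45 and 12.3 TPM beside 19.4 and 30.7 TPM.

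From a list of 157 inflammatory coding genes, 132 protein-coding ones reached 5 TPM in both libraries. Of these, 16 (12.1%) faced an annotated antisense gene of any level, against 13.2% of all 6815 coding genes at that level. Only Cd274, Maf, Zeb2 and Irf2 faced one of the 97 antisense genes, which is 3.03% of the 132, against 1.13% of the 6815. The list was chosen with earlier results of these data known, and the 2 sets were not matched for level. The difference rests on these 4 genes and was not tested. Without Maf, whose antisense gene is fully covered by its exons, 3 remain. Antisense genes of other inflammatory loci were lower. Il1bos had 0.30 and 0.37 TPM beside 141 and 57.5 TPM of Il1b, and Ptgs2os had 0.28 and 0.19 TPM beside 32.4 and 11.5 TPM of Ptgs2. Junos, opposite the AP-1 gene Jun, had 2.09 and 3.99 TPM. Gm43964, within the kinase gene Irak2, had 4.06 and 10.4 TPM, on only 7 and 27 counts.

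For 7 of the 97 genes the symbol itself names a coding gene. Zeb2os, Rab10os, Peak1os and Aknaos lay below the gene they are named after in both libraries. Rab10os had 12.0 and 12.7 TPM beside 64.0 and 42.0 TPM of Rab10, a GTPase of vesicle transport. Peak1os had 10.9 and 9.85 TPM beside 35.6 and 22.1 TPM of Peak1, a pseudokinase of the cytoskeleton. Aknaos had 6.89 and 6.96 TPM beside 38.1 and 44.9 TPM of Akna, a centrosome protein.

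Brip1os, Mypopos and Rab26os lay above their namesakes in both libraries. Brip1os had 16.1 and 11.6 TPM beside 0.77 and 0.69 TPM of Brip1, a DNA repair helicase, and overlaps a second coding gene, Ints2, over more bases. Mypopos had 10.9 and 10.8 TPM beside 3.10 and 2.29 TPM of Mypop, a Myb-related repressor. Rab26os had 8.21 and 5.63 TPM beside 0.38 and 0.37 TPM of Rab26, but on 19 counts in each library. Over the 7 pairs, the median log2((antisense TPM + 1)/(coding TPM + 1)) was -1.35 ± 0.38 (SD of 2 libraries). The pairs ranged from -2.82 for Zeb2os to 3.09 for Brip1os, and the median is the value of the Peak1os pair.

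By position, 90 of the 97 genes had a coding partner on the opposite strand, 86 different genes in all. Sdc3, Ikbke, Lrmda and Arhgap10 each faced 2 antisense genes. Of the 97, 52 (53.6%) lay within the partner, 20 (20.6%) overlapped it tail to tail, 14 (14.4%) overlapped it head to head, 3 spanned it, 1 was divergent without overlap and 7 had no partner. Over all 3067 antisense genes the shares were 53.5% within, 14.4% tail to tail and 21.2% head to head. Starts within 500 bases of the start of the partner, the arrangement of a shared promoter, were found for 5 of 90 pairs (5.56%), against 8.82% of 2834 other antisense genes with a partner. These 5 are Tug1, Zfas1, Gm16094, Gm26782 and 1600020E01Rik.

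The coding partners were themselves expressed. Of the 90 partners, counted once for each antisense gene, 81 (90%) reached 5 TPM in both libraries, against 34.2% of the partners of all 2924 antisense genes with one. The median partner had 37.8 TPM, and 0.91 TPM for the other antisense genes. The part that reads shared between strands have in this was not tested. The 97 genes also had longer annotations than the other antisense genes, with a median of 1960 against 939.5 exonic bases.

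The antisense gene was usually the lower of the pair. The median log2((antisense TPM + 1)/(partner TPM + 1)) over the 90 pairs, taken on each pair's mean of both libraries, was -1.90. The medians within single libraries were -1.86 and -1.75, or -1.81 ± 0.075 (SD, n = 2). The median antisense gene stood at 26.6% of its partner. Among the 30 pairs that share no exonic base the median was -1.90, and among the 60 that share some it was -1.79. Pairs without shared exonic bases may still share reads through introns of the partner. By position the median was -1.95 within the partner, -1.93 head to head and -1.31 tail to tail. Because the rule keeps only antisense genes of at least 5 TPM, it leaves out pairs with a low antisense gene, and these medians do not describe the class.

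In 13 of 90 pairs the antisense gene was above its partner by mean TPM, in both libraries each time. By replicate 1 alone 18 pairs were above, among them Gm26716, Gm15655, Gm37401 and Gm7480. The 13 are Tug1, Gm26740, Gm17435, Brip1os, Gm16536, Mypopos, E130307A14Rik, 9530082P21Rik, 5430405H02Rik, Gm27177, Gm26982, 4930512H18Rik and Rab26os. The 5 furthest above had a partner close to silent. Gm26740 had 28.7 and 24.01 TPM beside 0.54 and 0.18 TPM of Raet1e, a stress ligand of natural killer cells. 9530082P21Rik had 7.56 and 11.8 TPM, and Kremen2, a receptor of Wnt inhibitors, was listed at 0 in both libraries. Gm27177 had 11.0 and 5.67 TPM beside 0.28 and 0.07 TPM of Loxl2, a collagen-modifying oxidase. 4930512H18Rik had 7.31 and 7.53 TPM beside 0.72 and 0.48 TPM of Palld, an actin-binding protein, and Rab26os is given above. In the rescaled kallisto-layout table these 5 partners were higher, though still below their antisense genes. Loxl2 had 3.41 and 2.53 TPM there, Palld 1.88 and 1.45 TPM, Raet1e 1.05 and 1.06 TPM and Kremen2 0.43 and 0.54 TPM. Gm26982, with 5.76 and 6.37 TPM there, lay below Ghrl at 19.8 and 21.7 TPM. Brip1os, with 13.5 and 9.60 TPM, lay slightly below Ints2 at 14.5 and 9.64 TPM. Gm16536, with 9.94 and 7.26 TPM beside 9.18 and 8.80 TPM of Bace1, was above in replicate 1 only. The remaining pairs stayed above.

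At the other end, 9 antisense genes stood under 10% of their partner. Gm12970 in Sdc3 stood lowest, at 2.87% of it. Gm2245 had 17.6 and 13.9 TPM within Fyb, an adaptor of immune cells at 519 and 437 TPM, or 3.29% of it. Gm28914 stood at 4.97% of Ikbke. Gm26811 was at 5.84% of Plxna1, a semaphorin receptor at 148 and 142 TPM, and Gm37850 at 6.38% of Rbm5, a splicing regulator at 106 and 72.3 TPM.

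**Figure D2:**
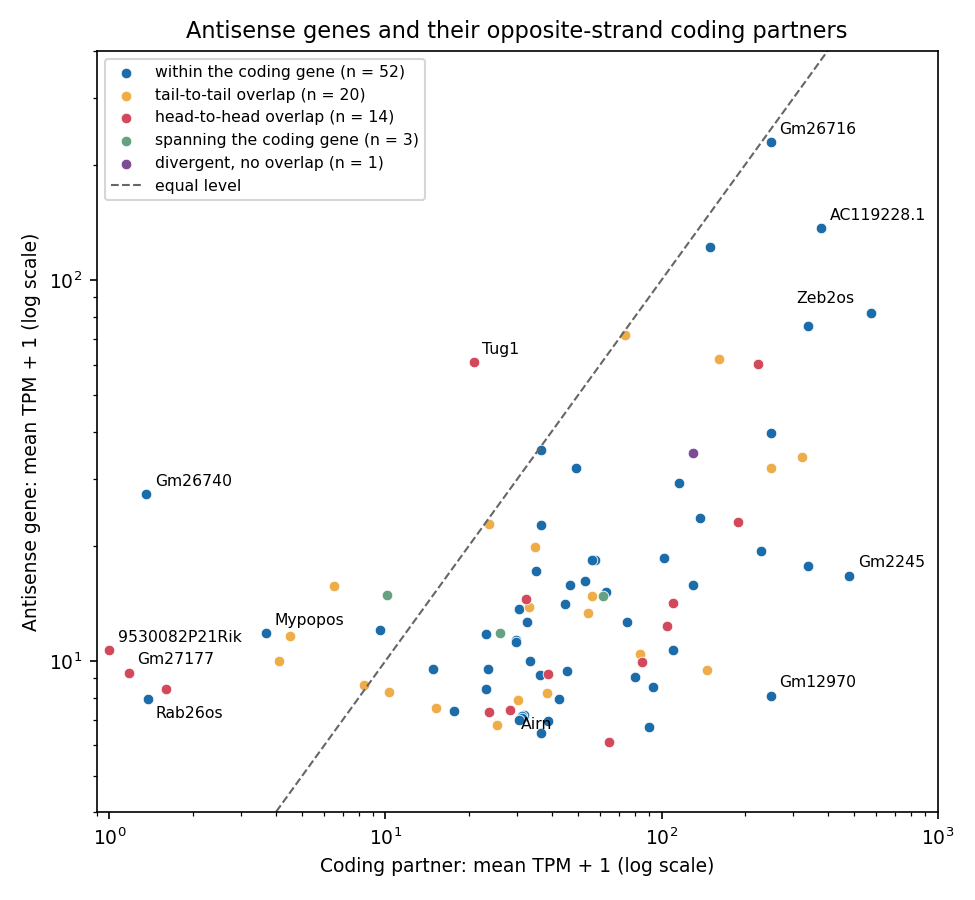
Mean TPM + 1 of the 90 antisense genes with a partner (vertical log axis) against mean TPM + 1 of the partner (horizontal log axis), coloured by relative position, with a dashed line of equal level. The points of 13 pairs lie above the line, and Gm26740, 9530082P21Rik, Gm27177 and Rab26os lie at its far left, where the partner is near 0.

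Exon overlap differed widely among the genes. Of the 97 genes, 34 (35.1%) had no exonic base in an exon of the opposite strand, against 40.7% of the other antisense genes. In 6 genes, Gm26716, Gm15655, Gm37401, Gm17122, Gm17139 and Gm44709, at least 90% of exonic bases did. When coding totals were made equal, 310 of the 3067 antisense genes reached 5 TPM in both libraries in the kallisto-layout table. The gene table passed fewer, the 97 described here. Of these 97 genes, 92 also reached the level in the kallisto-layout table. Among the 5 that did not were 4 of the 6 covered genes and 1 of the other 91, Rab26os, which had 4.99 and 3.54 TPM there. By mean level, 17 genes were more than 2-fold higher in that table than in the gene table, Zeb2os, Gm20234 and Airn the most, and 4 were more than 2-fold lower. In 19 of the 97 the library with the higher TPM changed between the tables. Over all antisense genes that face a partner of at least 50 TPM, the median level was 1.32% of the partner with no shared exonic base (51 genes). It was 2.21% with up to 50% shared (91 genes), 0.81% with 50 to 90% shared (20 genes) and 19.4% with at least 90% shared (8 genes, range 0.64 to 97.7%).

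Between the libraries, the median antisense gene had a log2 ratio of replicate 2 over replicate 1 of -0.11 on the log2(TPM + 1) scale, where the 7585 genes of at least 5 TPM had -0.22. On TMM-normalised CPM, counts scaled to library size and not divided by length, these medians were 0.18 and 0.04. The sign of the shift of the antisense genes therefore turned with the scaling, and on both scales it lay above that of all genes. As a description, levels on the log2(TPM + 1) scale correlated between libraries with a Pearson coefficient of 0.85 over the 97 genes and 0.95 over the 7585, which span a different range of levels.

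By TPM, 1 antisense gene was more than 2-fold higher in replicate 2, against 1.29% of the 7585 genes, and 7 (7.22%) were more than 2-fold lower, against 3.64%. The higher one was Gm44709 within Supt5, at 6.67 and 14.9 TPM. The lower ones were Gm15655 and Gm37401, given above, Gm17122 within Coro1c, at 28.4 and 6.31 TPM, Gm16185 within Slc25a36, at 24.7 and 10.1 TPM, and 4930403D09Rik, Gm47917 and Gm26789. Gm44709, Gm15655, Gm37401 and Gm17122 are 4 of the 6 genes covered by opposite exons, and 4 genes remain past 2-fold without the covered ones. All 7 lower genes were also more than 2-fold lower in the rescaled kallisto-layout table.

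**Figure D3:**
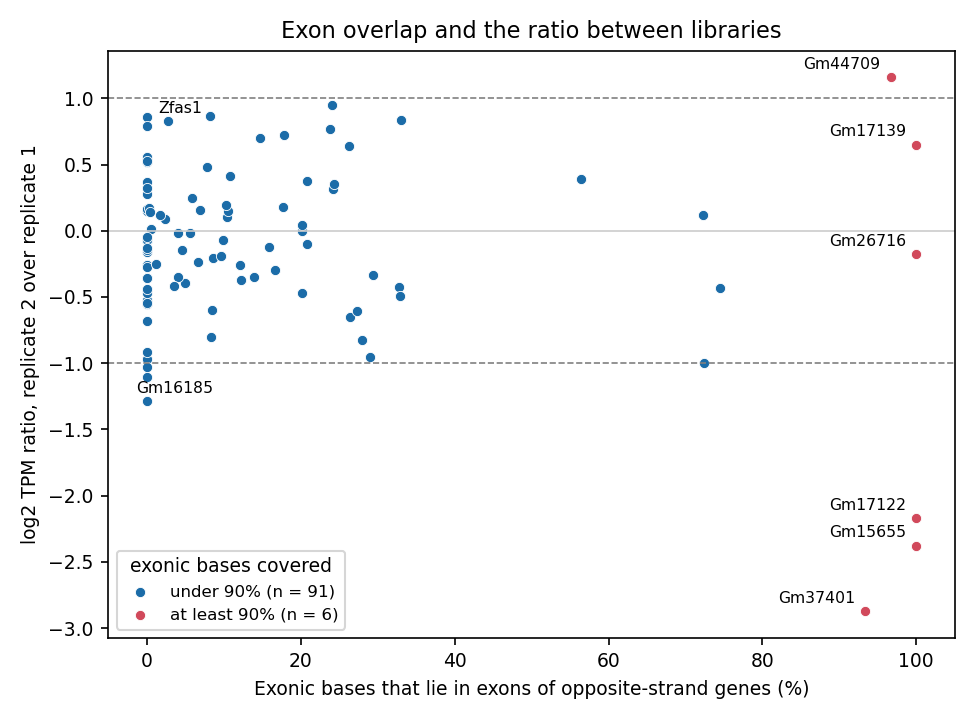
log2 TPM ratio of replicate 2 over replicate 1 of the 97 antisense genes against the percent of their exonic bases that lie in exons of opposite-strand genes, with dashed lines at 2-fold. Red points are the 6 genes covered to at least 90%, of which 4 lie outside the lines, and blue points the other 91, of which 4 lie below them.

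By CPM, 11 antisense genes (11.3%) were more than 2-fold higher in replicate 2, against 3.82% of the 7585 genes, and 3 (3.09%) more than 2-fold lower, against 0.712%. The 3 lower ones, Gm15655, Gm37401 and Gm17122, are all among the 6 genes covered by opposite exons. The 11 were Gm28913, Gm16094, Gm20234, Gm45606, Gm28914, Gm17139, A530040E14Rik, Gm26674, Gm44709, Gm12970 and Gm19605. Among them, Gm17139 and Gm44709 are also covered genes. Gm16094 had 4.79 and 12.3 CPM, and its partner Sp110 had 179 and 336 CPM. Gm28913 had 7.81 and 19.3 CPM beside 567 and 890 CPM of Ikbke. Gm20234 had 11.5 and 25.8 CPM beside 441 and 551 CPM of Slfn2, but 116 and 130 CPM from kallisto-layout counts. Gm26674, opposite the scaffold gene Sash1, had 10.5 and 25.2 CPM beside 568 and 621 CPM, and Gm45606, opposite the transporter gene Slc43a2, had 38.9 and 85.3 CPM beside 938 and 1045 CPM. In these 5 pairs, which were picked for a large ratio, the antisense gene differed more between libraries than the coding gene by this CPM. In the rescaled kallisto-layout table Gm26674 and Gm45606 still differed more than their partners. Gm20234 did too, but with the order of the libraries turned, at 233 and 191 TPM beside 260 and 260 TPM of Slfn2. Gm28913, with 283 and 228 TPM beside 420 and 579 TPM of Ikbke, differed less there. So did Gm16094, with 89.7 and 111 TPM beside 131 and 193 TPM of Sp110. From kallisto-layout counts, scaled in the same way, all 11 were still higher in replicate 2, but only 4 of them more than 2-fold.

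Antisense genes and partners tended to be higher in the same library. Over the 90 pairs, the log2 CPM ratios correlated at 0.44 (Pearson) and 0.51 (Spearman), and 63 pairs had the same sign. In the 30 pairs with no shared exonic base the coefficients were 0.36 and 0.30, and 20 had the same sign. In the 60 with shared bases they were 0.47 and 0.57, with 43 of the same sign. Pairs with no shared exonic base may still share reads through introns of the partner. All pairs share the same 2 libraries, their depth and their scaling, so these values describe the libraries. No share of the same sign was computed for unrelated gene pairs. Whether 63 of 90 is particular to these pairs was therefore not tested. The log2 levels of antisense gene and partner correlated at 0.47 (Pearson) and 0.48 (Spearman) over the same pairs.

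**Figure D4:**
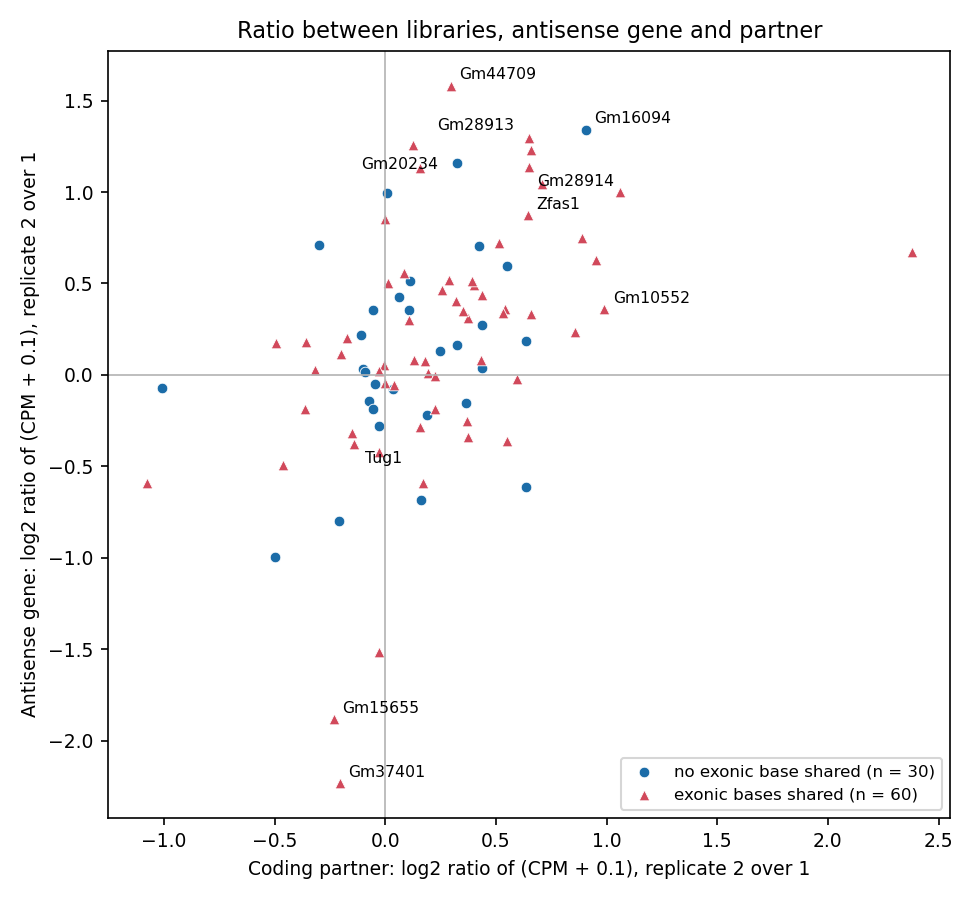
log2 ratio of CPM + 0.1 between the libraries for the 90 antisense genes (vertical) and their coding partners (horizontal), circles for pairs with no shared exonic base and triangles for pairs with shared bases. Gm16094, Gm28913 and Gm28914 lie at the upper right with their partners, and Gm15655 and Gm37401 lie at the bottom with partners near 0.

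The 97 genes had 221 annotated transcripts, of which 207 are of biotype antisense, 10 retained_intron, 3 processed_transcript and 1 misc_RNA. A single transcript was annotated for 50 genes (51.5%), against 73.7% of the other antisense genes. In 95 genes the transcript with the highest TPM was of biotype antisense, the exceptions being BE692007 and 5430405H02Rik. The leading transcripts were 298 to 5831 bases long, with a median of 1382 bases. In 53 genes the leading transcript had 2 exons, in 29 at least 3 and in 15 only 1. Of 221 transcripts, 51 were listed at 0 TPM in replicate 1 and 42 in replicate 2.

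From a list of 21 widely studied antisense RNAs, 19 were found in the annotation and 14 met the conditions on biotype. Of the 14, Zeb2os and Airn (14.3%) were among the 97, against 3.16% of all 3067 antisense genes, and 8 were at 0 counts in both libraries. Airn had 6.75 and 6.11 TPM from 105 and 111 counts, beside 30.8 and 23.9 TPM of Igf2r, the receptor it silences in cis. In the rescaled kallisto-layout table Airn had 36.4 and 27.9 TPM and Igf2r 42.0 and 36.0 TPM. Kcnq1ot1, another large imprinted antisense RNA, missed the level with 6.11 and 3.30 TPM. Its 11272 expected counts in replicate 1 exceeded those of every one of the 97 genes there, and it had 6674 in replicate 2; TPM divides by its great length. Gt(ROSA)26Sor, the locus used for transgenes in mice, was at 23.4 and 20.3 TPM, beside 24.6 and 20.7 TPM of Thumpd3, which it overlaps tail to tail. Of a list of 24 noncoding RNAs of inflammation, 18 were found, 6 reached 5 TPM and 1, Zeb2os, is among the 97. That level was reached by 1.82% of genes with a lincRNA transcript and 3.16% of the antisense genes. The list mixes biotypes. Malat1, Neat1, Mir155hg, Mir22hg and Gm14005 also reached the level but hold no transcript of biotype antisense.

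The factors that degrade antisense and promoter-upstream RNA in the nucleus were measured in the same tables. Of 32 found from a list of 34 genes, 23 reached 5 TPM in both libraries, where 30.9% of all coding genes did. The highest were Srrt, which links the cap to decay, at 65.1 and 55.9 TPM, the termination factor Pcf11, at 57.9 and 57.8 TPM, Rbm7, an RNA-binding part of the nuclear exosome targeting complex, at 51.8 and 46.2 TPM, and the poly(A)-binding protein gene Pabpn1, at 45.2 and 47.2 TPM. The helicase Mtrex had 17.3 and 16.4 TPM, and the nuclease Dis3 5.19 and 2.50 TPM. Exosc6 was listed at 0 in both libraries. mRNA levels in the nucleoplasm do not give protein levels.

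At the threshold itself, Gm11696 (5.26 and 5.01 TPM), Gm12970 (5.03 and 9.19 TPM) and Gm37850 (5.06 and 6.33 TPM) were just inside. Gm43079 (5.87 and 4.95 TPM), Gm37696 (7.47 and 4.83 TPM) and 1700008B11Rik (7.43 and 4.82 TPM) were just outside. Of the 3067 antisense genes, 1479 had 0 counts in both libraries and 478 reached 1 TPM in both. Snhg14, at 13.2 and 5.67 TPM, was left out by its name, and AC142100.4, at 17.2 and 11.0 TPM, for a lincRNA transcript.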

How the data were processed

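Ribosomal-RNA-depleted RNA of 1 group with 2 libraries was used, of a fraction that the labels call nucleoplasmic and elsewhere nuclear. Per the deposited file notes, 2 tables rest on transcriptome alignments (mm10, GENCODE M21) and the other was made straight from the reads. The deposited gene and transcript tables, in the layout RSEM writes, hold expected counts and TPM per the file headers, and a deposited table in the layout of kallisto gives estimated counts and TPM of each transcript. The authors' TPM divides by an effective length and sums to a fixed total, so short RNAs gain weight from few reads. No label or header names the programs or the strand setting, which are thus not given in the sources used here. A text note among the deposited files was read for its description only.

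The members and all lists were chosen with earlier results of these data known. Biotypes came from field 8 of the transcript names. The partner was the opposite-strand coding gene sharing most bases, else one with a divergent start within 2000 bases. A pseudocount of 1 was used for TPM and 0.1 for CPM. Genes were named by a fixed rule: the 15 highest, those with a coding gene in their symbol, the 3 largest ratios between libraries in each direction from 50 counts, the 3 genes on each side of the threshold, the 5 highest and 5 lowest relative to the partner, and those facing listed inflammatory genes. Gt(ROSA)26Sor, Gm16712, E430024P14Rik, Gm10552, A530040E14Rik and the genes of counts given in full were also named after their values were seen.

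Expected counts were rounded to whole numbers for scaling factors, from edgeR 4.0.16 (TMM) and DESeq2 1.42.0 in R 4.3.3. The ratio calculation was run on simulated counts with 2-fold changes planted in 200 genes. These counts held counting error only, so the run checks the calculation and not the measured ratios. Python 3.11.15 was used otherwise. With 1 group and 2 libraries no test between conditions was possible and no p-value is given. Entries outside the annotation held 0.282% and 0.0640% of counts and were left out. A count of 0 allows up to 1.49e-05% and 1.53e-05% of counts, taking 3 counts as the limit.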

Additional observations from a re-analysis of the deposited data

How the results depend on the processing

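Of 53 alternatives computed for 8 results, 32 were labelled as the same, 17 as moved and 4 as reversed. The labels were not on an even scale. Some counts labelled as the same shifted clearly, as given below, while a median of -1.82 against -1.90 was labelled as moved. The count of antisense genes, 97, was 282 at 2 TPM, 45 at 10 TPM, 35 by kallisto-layout TPM and, in an alternative chosen after seeing the data, 310 after rescaling that TPM to the coding total, with 92 of the 97 among them. Leaving out 1 library gave 128 to 133, both labelled as the same. The median log2 ratio to the gene named in the symbol was -0.18 by kallisto-layout TPM and -2.37 by CPM. Without genes that share exonic bases it was 2.51, resting on 1 gene, Rab26os. The median log2 ratio to the coding partner was -1.82 by posterior mean TPM, -1.30 by kallisto-layout TPM, -3.42 by CPM and -1.86 to -1.75 in single libraries. Without genes that share exonic bases, 2 of the 28 pairs left lay above the partner, where 13 of 90 did. By replicate 1 alone 18 of 90 did, which was labelled as the same. The median log2 ratio between libraries was 0.18 by TMM-normalised CPM, 0.15 with DESeq2 size factors, 0.15 by kallisto-layout counts and -1.80 by kallisto-layout TPM, where coding genes took 27.8% and 5.86% of TPM in the 2 libraries. Members past 2-fold numbered 14 by CPM, 14 with DESeq2 size factors, 96 by kallisto-layout TPM and, in an alternative chosen after seeing the data, 4 without the genes covered by opposite-strand exons. The share of counts was 0.317% in the kallisto-layout table. The cause of these changes was not tested. No paired analysis was possible because the libraries form 1 group. Depth limits the genes with few reads, the lowest of which had 19 expected counts in each library.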
